A study of Mus musculus with 4 samples.

Results

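The regions described here are 4010 windows of 1 kb of the mouse genome (build mm10) in which DNA methylation was low in R1 embryonic stem cells (ESCs) and nearly complete in neurons made from them. They were chosen among 80233 eligible tiles, which are windows starting at multiples of 1000 bases with at least 5 CpG sites listed in all 4 tables. The level of a tile is the unweighted mean, over those sites, of the percent of reads that reported cytosine. A tile was a member when its level was at most 20% in R1 ESCs and at least 90% in R1 neurons, and 5% of eligible tiles met both limits. The levels of the members in these 2 libraries were therefore set by the choice and are given as a description.

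The 4 libraries were made by reduced representation bisulfite sequencing (RRBS), in which DNA is cut with MspI at CCGG and unmethylated cytosines are converted by bisulfite. R1 is an established wild-type line of mouse ESCs. The Tet/Tet line was derived from R1 by knock-in of tet-off constructs at Dnmt1, is a single line, overexpresses DNMT1 according to the methods of the study, and was kept in puromycin and neomycin. R1 and Tet/Tet neurons were obtained by 2 days of embryoid body culture without LIF and 10 to 15 days in Ndiff227 medium per the labels. The methods of the study give a lower upper limit for the days in that medium. Each line and cell type had 1 library, so no difference between conditions could be set against a spread between cultures, and none was tested. Both ESC libraries came from 1 sequencing project and both neuron libraries from another, so that cell type and project cannot be told apart. The labels name phenol and chloroform for ESC DNA and a column kit for neuron DNA. The methods of the study describe phenol and chloroform for both cell types, so the sources differ. If the labels hold, extraction cannot be told apart from cell type either.

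DNA methylation in mammals is placed on unmethylated CpGs mainly by DNMT3A and DNMT3B and is copied to the new strand after replication by DNMT1, while TET enzymes oxidise it. Most CpG islands at gene starts stay unmethylated in every tissue, whereas the bodies of transcribed genes are usually methylated. A known exception among starts is a group of germline genes, whose promoters are methylated in somatic cells when pluripotent cells differentiate.

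The tables listed between 2311939 and 5298360 CpG sites, of which 1545651 were in all 4. They hold no read numbers, so the depth behind each value is unknown. Over the shared sites the mean level was 26.8% in R1 and 28.1% in Tet/Tet among ESCs, and 53.3% and 10.9% among neurons. In Tet/Tet neurons no sites were listed on chromosomes 8 and 9. On chromosomes 7 and 10 there were 119743 and 6220, against 320483 and 281995 in R1 neurons. Tiles without listed sites in that library could not be eligible, so no member lies on chromosomes 8 and 9. RNA was not measured, so cell identity could be seen only through methylation at marker promoters: at Pou5f1, a core pluripotency gene, the mean over 15 sites was 1.90% in R1 and 8.91% in Tet/Tet among ESCs, and 36.1% and 5.44% among neurons, and at Map2, a neuronal cytoskeleton gene, the 41 sites averaged between 1.53% and 3.52% in the 4 libraries. Other neuronal promoters were higher in R1 neurons than in R1 ESCs: Syp, which encodes a synaptic vesicle protein, was at 38.5% against 7.79% over 17 sites, and Dcx, of a microtubule protein of young neurons, at 57.8% against 17.6% over 3 sites. Among other ESC markers, Esrrb had 39.4% in R1 and 40.9% in Tet/Tet ESCs, and 76.8% and 9.84% in the neurons, over 11 sites. In that order Dppa3 had 39.1%, 43.6%, 91.4% and 13.2% over 8 sites. Nanog had 4.22%, 4.56%, 27.8% and 7.37% over 3 sites. Of glial markers, Olig2 was between 2.33% and 5.60% in the 4 libraries and Mbp between 3.41% and 16.2%.

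Stretches of 5 members are shown as examples, none of them intergenic, and do not stand for the commonest places of members. They were taken at starts of germline genes (Sohlh2, Hormad1) and of a testis histone gene (Hist1h2ba), and in a coding exon (Zmynd8). They also include a stretch of a member near an X-linked start where Tet/Tet ESCs departed from R1 ESCs (AU022751). Each is read from the plus strand of mm10, 5′ to 3′, and the capitals mark CpGs listed in all 4 tables.
Sohlh2, chr3:55182307-55182546: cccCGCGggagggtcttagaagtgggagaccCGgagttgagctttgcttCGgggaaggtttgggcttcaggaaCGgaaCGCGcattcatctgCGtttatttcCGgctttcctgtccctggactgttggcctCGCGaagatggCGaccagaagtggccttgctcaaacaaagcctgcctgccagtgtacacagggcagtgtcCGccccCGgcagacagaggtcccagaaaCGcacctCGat
Hormad1, chr3:95559437-95559676: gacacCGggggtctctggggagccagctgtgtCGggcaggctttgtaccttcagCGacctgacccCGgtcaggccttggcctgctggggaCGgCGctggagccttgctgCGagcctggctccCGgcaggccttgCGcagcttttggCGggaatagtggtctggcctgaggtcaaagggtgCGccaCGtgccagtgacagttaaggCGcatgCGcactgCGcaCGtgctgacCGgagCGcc
Hist1h2ba, chr13:23933821-23934000: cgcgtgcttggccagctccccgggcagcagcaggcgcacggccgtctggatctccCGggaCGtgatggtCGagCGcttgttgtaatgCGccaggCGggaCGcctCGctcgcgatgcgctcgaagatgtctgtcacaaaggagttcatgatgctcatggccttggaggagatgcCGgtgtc
AU022751, chrX:6082008-6082247: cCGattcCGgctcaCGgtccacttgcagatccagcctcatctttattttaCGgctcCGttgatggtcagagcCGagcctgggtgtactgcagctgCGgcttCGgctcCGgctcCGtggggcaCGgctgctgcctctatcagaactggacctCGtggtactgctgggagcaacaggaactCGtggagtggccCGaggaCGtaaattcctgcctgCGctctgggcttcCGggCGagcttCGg
Zmynd8, chr2:165807689-165807928: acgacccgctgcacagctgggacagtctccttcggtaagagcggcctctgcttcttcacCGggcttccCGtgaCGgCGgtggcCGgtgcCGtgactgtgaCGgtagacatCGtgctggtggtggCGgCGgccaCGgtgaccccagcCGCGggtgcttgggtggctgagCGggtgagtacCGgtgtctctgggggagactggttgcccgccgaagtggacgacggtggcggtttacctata
The Sohlh2 stretch of 240 bases lies in the first intron and holds 16 listed CpGs, and that of Hormad1 ends at the base before the annotated start and holds 18. The stretches of Hist1h2ba, AU022751 and Zmynd8 overlap coding sequence and hold 9, 19 and 15 listed CpGs. That of AU022751 lies more than 1 kb downstream of the annotated start, although the centre of its tile is within 1 kb. Over these CpGs the mean in Tet/Tet neurons was 23.4% ± 8.26 (SD over sites) in Sohlh2, 19.8% ± 9.66 in Hormad1, 21.1% ± 5.78 in Hist1h2ba, 18.9% ± 10.3 in AU022751 and 16.5% ± 7.21 in Zmynd8. In R1 neurons the same CpGs averaged between 89.8% and 95.9%, so each stretch was heavily methylated in R1 neurons and sparsely in Tet/Tet neurons.

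Neither Tet/Tet library showed the methylation that defined these regions in R1 neurons. The median level of the members in the R1 line was 12.95% in ESCs and 93.9% in neurons, as the choice required. In the Tet/Tet libraries, which did not enter the choice, the median was 14.5% in ESCs (quartiles 8.28% and 23.7%) and 15.8% in neurons (11.9% and 20.4%). Over all eligible tiles the medians were 30.1% in R1 and 32.7% in Tet/Tet among ESCs, and 88.9% and 13.3% among neurons. In Tet/Tet neurons, 2945 members, or 73.4%, lay at or below 20%, against 76.3% of all eligible tiles. In that library 23 members, or 0.574%, were above 50%, beside 0.560% of all eligible tiles.

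**Figure D1:**
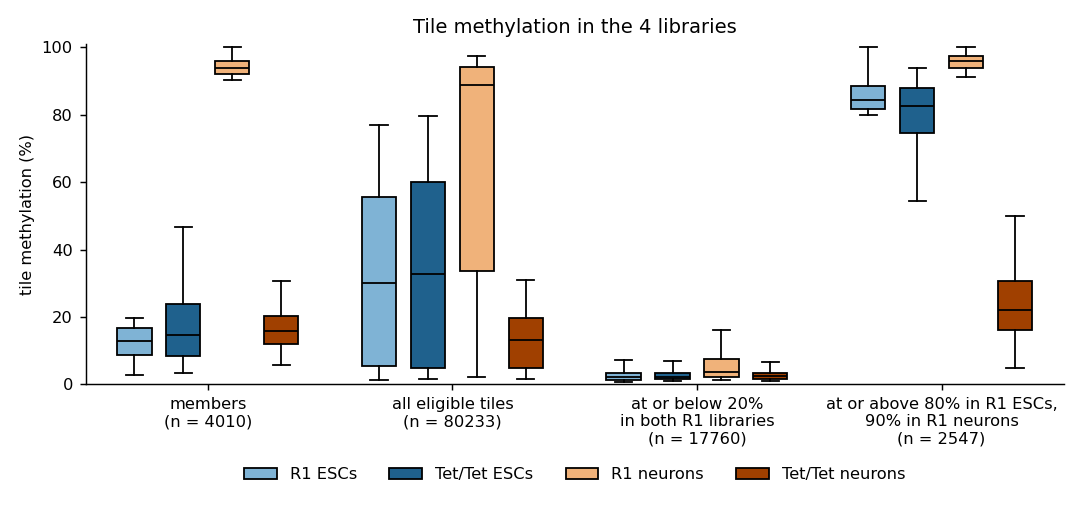
Methylation of tiles in percent in the 4 libraries, for members and for 3 sets of tiles, with boxes from the lower to the upper quartile, a line at the median and whiskers at the 5th and 95th percentiles over tiles. Members stand near 94% in R1 neurons by choice, while in Tet/Tet neurons their median is 15.8%, close to that of all eligible tiles, 13.3%.

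Between the neurons of the lines the mean over members went from 94.1% to 16.8%. The Tet/Tet level was at least 10 percentage points lower in 4009 of 4010 members, beside 79.6% of all eligible tiles. R1 neurons entered the rule, so nothing is read from that count. The exception was an intergenic tile upstream of Olfr731, an olfactory receptor gene, with 5 listed sites, where both neuron libraries were at 100% and both ESC libraries at or below 10%.

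In ESCs the lines differed by less than 10 points in 2916 of the 4010 members, and in 61846 of the 80233 eligible tiles. The Tet/Tet level was at least 10 points higher in 985 members, or 24.6%, beside 15.4% of all eligible tiles, and at least 10 points lower in 109, or 2.72%, beside 7.53%. The median difference was 1.70 points. R1 ESC levels were held to at most 20% by the rule, which leaves more room above than below, so this count is a description. The share with the higher level also moved with the data behind a tile: it was 34.3% of members with 5 listed sites and 4.59% of those with 21 or more, and it was 42.8% of members with no site in MspI fragments of 40 to 220 bases. The part of these properties in the result was not tested.

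Within the Tet/Tet line, the median level of the regions was nearly the same in ESCs and neurons, with members on either side. The level in Tet/Tet neurons was at least 10 points higher than in Tet/Tet ESCs in 748 members, or 18.7%, beside 2.56% of all eligible tiles. It was at least 10 points lower in 840 members, or 20.9%, beside 54.5% of all eligible tiles. The median difference was 1.42 points and the mean difference was -1.37 points, so the median and the mean differ in sign. In Tet/Tet ESCs the members had a median of 14.5%, against 32.7% over all eligible tiles. Members thus had less room to fall than eligible tiles at large, so the shares beside those of all tiles are a description. Among the 29122 tiles that were also at most 20% in R1 ESCs but were not members, 2.64% were at least 10 points higher in Tet/Tet neurons than in Tet/Tet ESCs and 4.55% were at least 10 points lower. These tiles had medians of 3.11% in ESCs and 3.41% in neurons of the Tet/Tet line. They thus had less room to fall than members, and their shares are a description too. Which direction was the commoner one among members depended on the tiles kept: with at least 10 listed sites, 24.8% were at least 10 points higher after differentiation of the Tet/Tet line and 12.2% at least 10 points lower, where the shares of all tiles with as many sites were 2.30% and 23.96%.

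The Tet/Tet neuron level of a tile low in R1 ESCs was ordered by its level in R1 neurons, although at a far lower scale. Of the 33132 tiles at most 20% in R1 ESCs, those below 10% in R1 neurons had a median of 2.18% in Tet/Tet neurons. The median was 6.15% for tiles between 40% and 50% in R1 neurons, 12.9% for those between 80% and 90%, and 15.8% for the members. The medians in Tet/Tet ESCs ran alike, from 2.14% to 14.5%. The R1 ESC level was not the same along this order either. Its median was 2.07% for tiles at or below 20% in both R1 libraries and 12.95% for the members. CpG density moved with this order too, from a median of 57 CpGs per kb to 22. The part of the R1 ESC level and of CpG density in the order was not tested.

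Members with the most CpGs were lower in Tet/Tet ESCs and higher in Tet/Tet neurons than members with few, although the ESC medians were not ordered throughout, with 16.2% at 15 to 19 CpGs per kb. At 10 to 14 CpGs per kb the median was 14.9% in ESCs and 13.5% in neurons of the Tet/Tet line, and at 50 or more it was 10.8% and 21.04%. Over all members the Pearson correlation of CpGs per kb with the level was -0.114 in ESCs and 0.188 in neurons of the Tet/Tet line, with Spearman values of -0.0913 and 0.215, given as a description since tiles share their libraries. Among the 125 members with at least 20 listed sites, the median was 10.99% in ESCs and 20.2% in neurons of the Tet/Tet line, and Tet/Tet neurons were higher in 104. The rise was at least 10 points in 44.8% of them, against 1.21% of all 13671 tiles with at least 20 listed sites. Of those 13671 tiles, 2.47% were at least 10 points lower. Tiles at or below 20% in both R1 libraries had a median of 27 listed sites. Their medians were 2.27% in ESCs and 2.34% in neurons of the Tet/Tet line. How many of the 13671 were of that kind was not counted, so these shares are a description. Even among the 125 members, the highest level in Tet/Tet neurons was 34.1%.

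**Figure D2:**
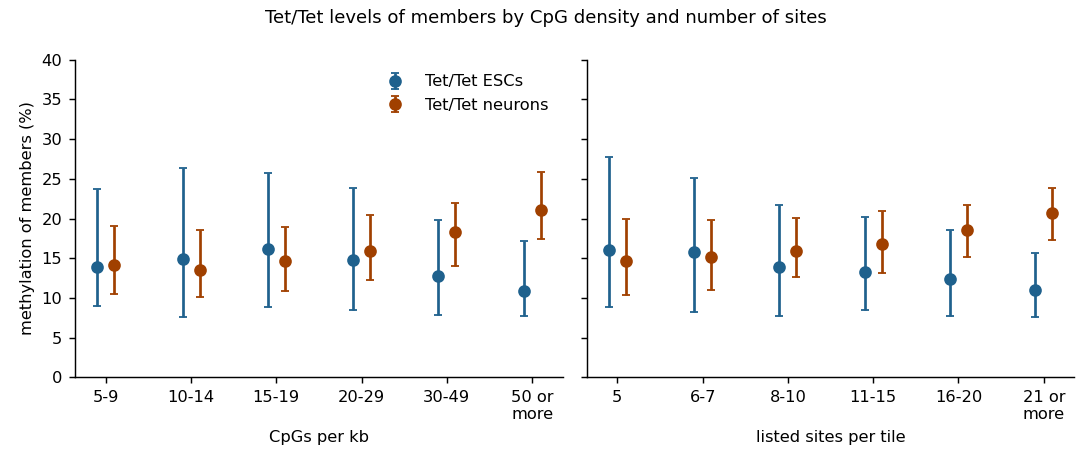
Median methylation in percent of members in Tet/Tet ESCs and Tet/Tet neurons by CpGs per kb and by number of listed sites per tile, with bars from the lower to the upper quartile over members. The 2 libraries are near each other in sparse tiles and part in dense ones, with 10.8% against 21.04% at 50 or more CpGs per kb.

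The members were also described at single CpGs. They held 33955 listed sites, of which 96.3% were at or above 80% in R1 neurons and 0.0206% were at 0. These sites chose the members, so their R1 neuron shares are a description. In Tet/Tet neurons 69.5% of the member sites were at or below 20%, 29.6% were between 20% and 80%, and 14.0% were at 0. Over all shared sites these shares were 82.5%, 16.4% and 24.7%. Within a member, the median SD over its sites among ESCs was 9.25 points for R1 and 10.8 for Tet/Tet, and among neurons 5.18 and 8.95. CpGs with A or T on both sides were lower than those with C or G on both sides in Tet/Tet neurons, 13.7% against 18.7%, and in Tet/Tet ESCs, 12.9% against 18.8%, and over all shared sites the values were 9.46% against 12.1% in Tet/Tet neurons and 30.0% against 29.2% in Tet/Tet ESCs, the latter in the opposite order.

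Sites in the members that were not in all 4 tables did not enter the rule. In R1 neurons the 26456 such sites averaged 92.0%, against 52.4% for such sites over all eligible tiles. In R1 ESCs the 3726 such sites averaged 22.7%, against 26.4%, which is higher than the 12.5% of the sites that chose the members and closer to that of eligible tiles at large. In the Tet/Tet libraries such sites averaged 24.3% in ESCs and 16.7% in neurons. The median over these R1 ESC sites was 0%, and for the 161 members with 5 or more of them the median of the tile means was 15.4%. The R1 neuron level was thus also high at other sites of the same tiles in the same library. Such sites are not independent of those that chose the members. For R1 ESCs the mean and the median of such sites lay far apart.

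Most members had no member beside them, but most adjacent tiles were not eligible and could not be members. Of the members, 3604 had no member in the next tile, 360 formed pairs, 42 formed runs of 3 and 4 formed a single run of 4. Only 1612 of the neighbouring tiles were eligible, and 26.2% of these were members, beside 5% of all eligible tiles. Their median levels were 16.3% in R1 and 15.99% in Tet/Tet among ESCs, and 91.7% and 16.1% among neurons. Since 422 of these neighbours were themselves chosen, the medians are a description.

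Farther out, sites outside CpG islands were less different between R1 ESCs and R1 neurons. Between 5 and 10 kb from the centre of a member such sites averaged 31.2% in R1 and 31.5% in Tet/Tet among ESCs, and 79.0% and 15.3% among neurons. At the same distance from all eligible tiles the values were 35.6%, 36.2%, 77.4% and 14.7%. Within 0.5 kb of the centre of a member the mean of such sites was 17.6% in ESCs and 16.7% in neurons of the Tet/Tet line, while the R1 values there were set by the choice. With sites in islands included, the mean in Tet/Tet neurons was 17.2% in both steps next to the centre and lay between 8.89% and 11.5% in the steps from 5 to 10 kb, so the level around the members depended on whether islands were counted.

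**Figure D3:**
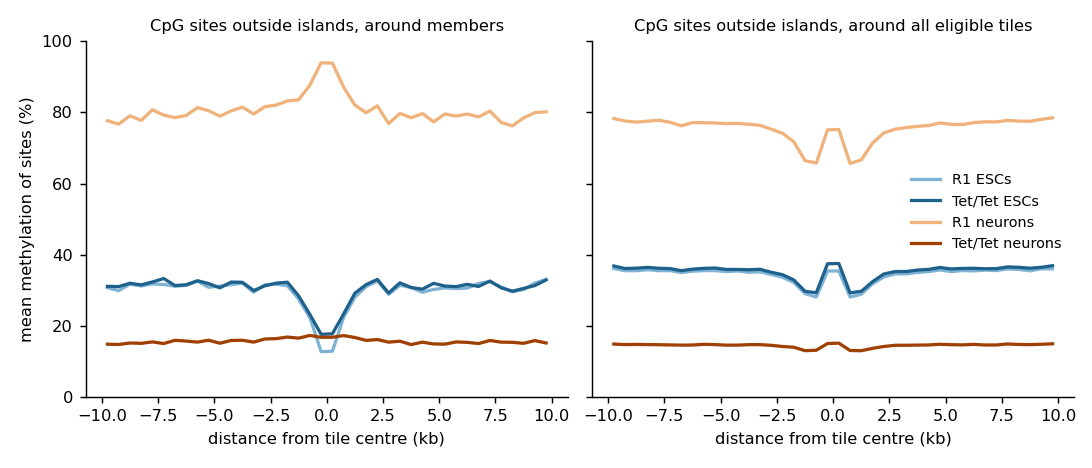
Mean methylation in percent of CpG sites outside islands by distance from the tile centre in kb, in steps of 0.5 kb, around members and around all eligible tiles, with 1 line per library. Around members the ESC lines dip and the R1 neuron line peaks at the centre, where the rule applied, while the Tet/Tet neuron line stays between 14.7% and 17.3% throughout.

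Most members lay inside genes and away from CpG islands. The centre of the tile was at most 1 kb from an annotated gene start in 377 members (9.40%), in a gene body in 2703 (67.4%) and between genes in 930 (23.2%). For all eligible tiles the shares were 23.9%, 46.5% and 29.6%. For the 17760 tiles that were at or below 20% in both R1 libraries they were 72.3%, 21.4% and 6.28%. A CpG island was overlapped by 478 members (11.9%), against 26.8% of all eligible tiles and 85.8% of the tiles that stayed low. Among gene-body members, 59.0% overlapped an exon and 51.5% overlapped coding sequence, against 54.0% and 43.7% of all gene-body tiles. Along protein-coding genes the centres lay at a median of 59.7% of the gene length from the start, against 56.4% for all eligible gene-body tiles.

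**Figure D4:**
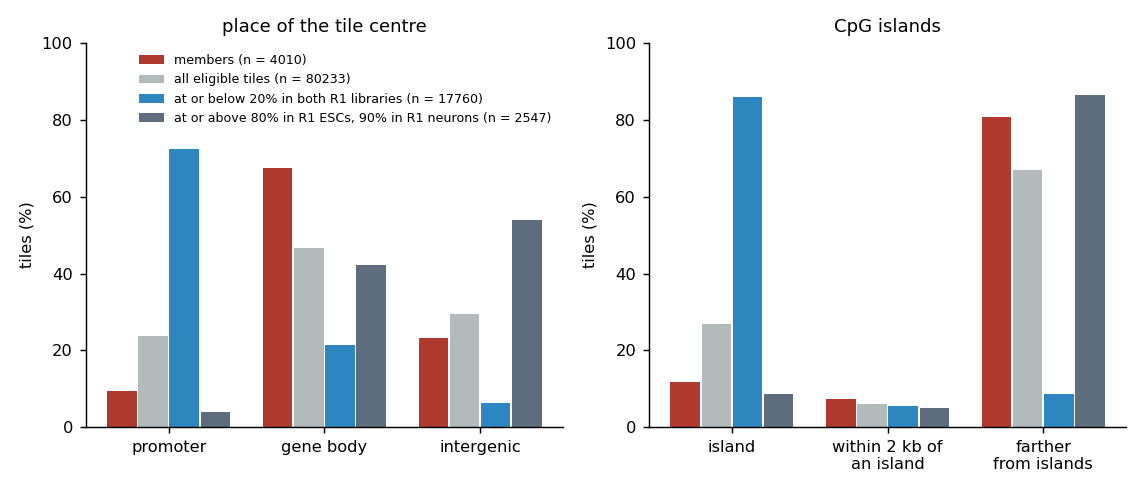
Share of tiles in percent by place of the tile centre and by distance from CpG islands, for members and 3 other sets of tiles. Members are in gene bodies in 67.4% and farther than 2 kb from islands in 80.7%, whereas tiles that stayed low in both R1 libraries overlap islands in 85.8%.

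The 3 places differed little in level. The median in Tet/Tet neurons was 15.8% at gene starts, 16.2% in gene bodies and 14.2% between genes, and in Tet/Tet ESCs it was 15.6%, 14.2% and 15.4%. Members overlapping an island had 12.4% in ESCs and 18.8% in neurons of the Tet/Tet line, and those farther than 2 kb from an island had 14.9% and 15.5%.

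In base composition the members were like eligible tiles at large. The median was 22 CpGs per kb in both, with a GC content of 50.7% against 50.8% and an observed over expected CpG ratio of 0.346 against 0.360. Tiles that stayed low in both R1 libraries had 53 CpGs per kb and a ratio of 0.671. Repeats masked in the reference sequence covered a median of 14.3% of a member and 14.0% of an eligible tile. The share of eligible tiles that were members was highest at 20 to 29 CpGs per kb, 7.33%, and lowest at 50 or more, 0.944%.

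At the starts of protein-coding genes the regions were rare. Members lay within 1 kb of the start of 137 protein-coding genes, or 1.22% of the 11235 with an eligible tile there. They were 139 tiles with a median of 25 CpGs per kb, against 50 for all 15171 eligible tiles at such starts, and 36 of them overlapped an island. The hexamer CACGTG, the E-box that MYC and MAX family proteins bind, was present on either strand in 17.3% of these 139 tiles and in 19.17% of the 15171. The hexamer TCCCGC, the core of E2F sites, was present on either strand in 28.8% of them and in 60.3% of the 15171, which are richer in CpG.

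Germline genes formed a recognisable group among these starts. Of the 48 listed protein-coding germline genes with an eligible tile at the start, 11 had a member there, or 22.9%, against 1.22% of all protein-coding genes. The list is a textbook one that was written with earlier results of these data known, and the share was not tested. A further listed gene with a member at the start, 1700018B24Rik, is annotated as a noncoding RNA gene and was not counted, with 30.2% in ESCs and 12.4% in neurons of the Tet/Tet line over 5 sites. The tiles of the counted genes, with those inside the genes, had medians of 22.1% in ESCs and 19.18% in neurons of the Tet/Tet line. The members named next are the listed genes with the most sites.

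Sohlh2, a transcription factor of early germ cell development, had the most listed sites of these, 35 in chr3:55182001-55183000. The level was 11.4% ± 8.61 (SD over sites) in R1 and 18.97% ± 12.9 in Tet/Tet among ESCs, and 93.3% ± 7.46 and 24.7% ± 11.4 among neurons. Tet/Tet neurons were above Tet/Tet ESCs at 25 of the 35 sites. Hormad1, a protein of the meiotic chromosome axis, had 14.5% ± 14.4 in R1 and 23.7% ± 15.9 in Tet/Tet among ESCs, and 91.03% ± 7.99 and 21.5% ± 8.96 among neurons over 27 sites in chr3:95559001-95560000. Majin, which attaches telomeres to the nuclear envelope in meiosis, had 12.1% and 20.98% in R1 and Tet/Tet ESCs and 93.2% and 18.2% in the neurons of these lines over 15 sites. In these 3 starts both Tet/Tet libraries were far from R1 neurons. Which Tet/Tet library was higher at Majin depended on the sites: with MspI fragments only the values were 9.21% in ESCs and 12.03% in neurons, and by the median over sites 11.3% and 12.9%.

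D1Pas1, a testis helicase of the DEAD-box family, had 8.22% in R1 and 9.76% in Tet/Tet among ESCs, and 96.2% and 21.1% among neurons over 14 sites, and its Tet/Tet ESC value was 5.88% by the median over sites. Fkbp6 and Zcwpw1 differed from it in the ESCs. Fkbp6, a co-chaperone needed in meiosis and for piRNAs, went from 13.1% in R1 to 40.1% in Tet/Tet among ESCs, higher at all 13 sites, while the neurons were at 90.6% and 17.5%. Zcwpw1, a reader of histone methylation in meiosis, had 1.92% ± 6.93 (SD over sites) in R1 and 42.3% ± 29.7 in Tet/Tet among ESCs. In neurons it had 91.3% ± 27.7 in R1 and 0% at each of 13 sites in Tet/Tet. Tet/Tet ESCs were above R1 ESCs at 11 of these 13 sites. No listed site of Zcwpw1 lay in MspI fragments of the size range used, whereas all those of Fkbp6 did. The ESC difference at Zcwpw1 could therefore not be recomputed with fragments only. The tile of Zcwpw1 also lies within 1 kb of the start of Mepce. The other germline starts were those of Hormad2, Piwil2, Pnldc1, Tex19.1 and Tuba3a, where Tet/Tet neurons were between 5.93% and 22.8%.

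Genes outside that list also appeared among the starts with the most listed sites. AU022751, an X-linked protein-coding gene, had 37 sites in chrX:6082001-6083000 and a level of 14.8% ± 12.2 in R1 and 53.3% ± 15.2 in Tet/Tet among ESCs, and 94.9% ± 8.84 and 14.1% ± 10.999 among neurons. Tet/Tet ESCs were above both R1 ESCs and Tet/Tet neurons at all 37 sites. A second member at the same start, with 27 sites, had 35.4% in Tet/Tet ESCs. Among members with at least 20 sites, AU022751 had the highest level in Tet/Tet ESCs.

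**Figure D5:**
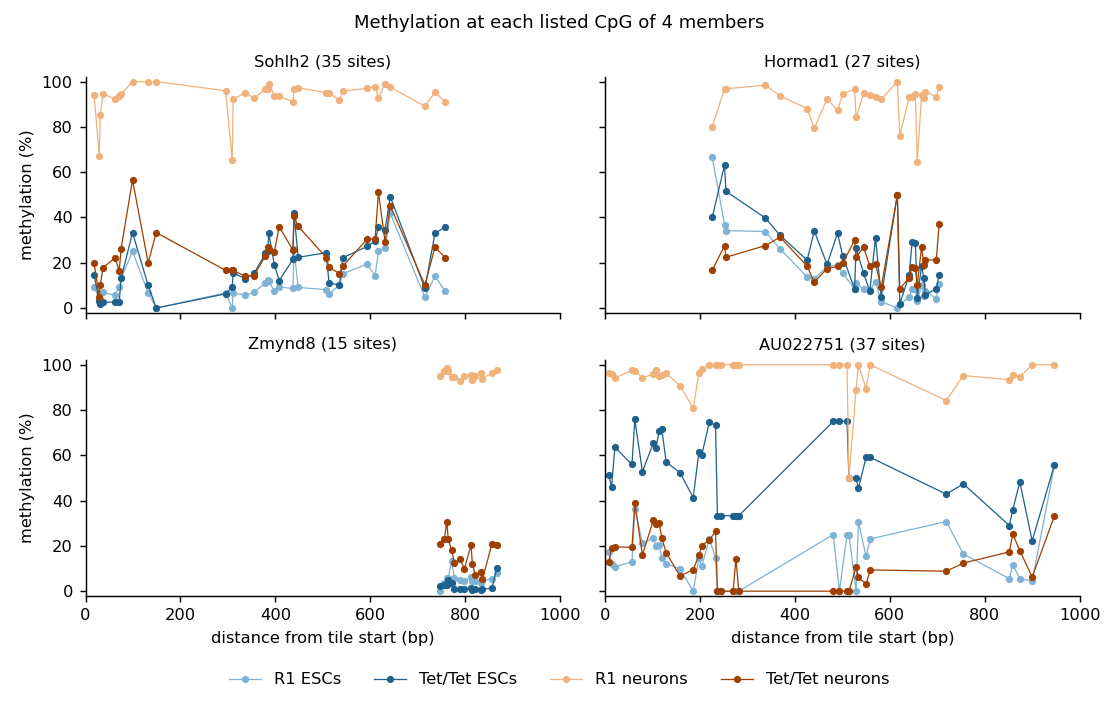
Methylation in percent at each listed CpG against distance from the tile start in bases, for the members at Sohlh2, Hormad1 and AU022751 and a member inside Zmynd8, with 1 point per site and library and lines joining neighbouring sites. R1 neurons are high throughout and Tet/Tet neurons low, and only at AU022751 do Tet/Tet ESCs stand above Tet/Tet neurons at every site.

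The remaining starts of this kind had low levels in Tet/Tet ESCs in most cases. Pabpc6, of the family of poly(A)-binding proteins, had 10.7% in R1 and 9.81% in Tet/Tet among ESCs, and 92.1% and 17.02% among neurons over 29 sites. Rhox13, an X-linked homeobox gene, had 13.3%, 18.8%, 91.2% and 19.6% in the same order over 29 sites. Rpl10l, a retrocopy of the ribosomal protein gene Rpl10 used in meiosis, had 7.13%, 6.56%, 94.6% and 19.8% over 20 sites. Ccdc185, Naa11 (a copy of the acetyltransferase gene Naa10), 1700029P11Rik and CN725425 were between 8.37% and 16.1% in Tet/Tet ESCs and between 9.42% and 23.9% in Tet/Tet neurons. Lhcgr, the receptor of luteinizing hormone, and Timm8a2, of a family of mitochondrial import chaperones, were at 34.8% ± 19.95 and 31.0% ± 31.3 (SD over sites) in Tet/Tet ESCs. Timm8a2 was at 18.5% there with sites in MspI fragments only and at 19.9% by the median over sites. By the median, Rhox13 was at 11.1% and Naa11 at 7.64% in Tet/Tet ESCs, and with MspI fragments only 1700029P11Rik was at 15.6% in Tet/Tet neurons. Several of these genes are copies of others, and how reads were split between near-identical copies is not given in the sources used here.

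The counts for the other lists are small and are given beside the 1.22% of all protein-coding starts, so that few or no members in a list is no result about it. The pluripotency genes had 1 of 26, Dppa4, with 6.92% in R1 and 1.88% in Tet/Tet among ESCs, and 94.6% and 20% among neurons over 5 sites. Of 41 histone genes, 2 had a member: Hist1h2ba and Hist1h2aa, the testis variants of H2B and H2A, shared 1 member in chr13:23933001-23934000 with 8.38%, 8.37%, 91.9% and 20.1%, and Tet/Tet neurons were above Tet/Tet ESCs at all 10 sites. Of 237 Zfp genes with an eligible start, 4, or 1.69%, had a member: Zfp229 at 42.7% ± 36.6 (SD over sites) in ESCs and 15.7% ± 31.0 in neurons of the Tet/Tet line, Zfp36l3 at 3.88% and 12.99%, and Zfp27 and Zfp383, which share a tile, at 15.6% and 12.9%. With sites in MspI fragments only, Zfp229 was at 11.4% and 21.7%, which turns the direction. No start among 52 neural factors, 40 mesoderm, endoderm and trophoblast factors, 26 imprinted genes, 37 Hox genes, 39 clustered protocadherins, 68 potassium channels, 26 glutamate and GABA receptors, 7 olfactory and vomeronasal receptors and 5 DNA methyltransferase and TET genes was a member.

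Inside genes the regions were spread widely. A member lay within 2023 protein-coding genes, or 15.8% of the 12824 with an eligible tile, and 505 of these held 2 or more. Among pluripotency genes 8 of 31 held a member in the body: Sall4, Klf4, Klf5, Esrrb, Dppa3, Jam2, Tet2 and Trim28. Sall4, a zinc-finger factor of pluripotent cells, held 4, the most of that list, with levels from 4.63% to 9.09% in Tet/Tet ESCs and from 13.9% to 28.7% in Tet/Tet neurons, and Tet/Tet neurons were higher in each. Dppa3, a maternal factor that protects DNA from oxidation by TET enzymes, held 1 with 19.4% in R1 and 27.7% in Tet/Tet among ESCs, and 93.6% and 27.7% among neurons. Sall4 and Dppa3 were singled out after their values were seen.

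The bodies of the other lists had members in 8 of 47 germline genes, 3 of 47 mesoderm, endoderm and trophoblast factors (Gata3, Pax8 and Runx1), 6 of 30 imprinted genes and none of 38 Hox genes. They were in 40 of 243 Zfp genes, 9 of 77 potassium channels, 2 of 37 glutamate and GABA receptors, 1 of 62 olfactory and vomeronasal receptors, 0 of 19 histone genes and 1 of 6 DNA methyltransferase and TET genes, which was Tet2 again. The count of 21 of 47 clustered protocadherins came from 2 tiles, because these genes overlap. None of these shares was tested.

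The gene with the most members was Gm26904, a long noncoding RNA gene annotated over 353721 bases of chromosome 17 that spans other genes, with 13 members among 100 eligible tiles. Myo10, an unconventional myosin of filopodia, held 11 of 28, Zmynd8, a reader of histone marks, 10 of 31, Dst, the cytoskeletal linker dystonin, 9 of 39, and Sipa1l3 8 of 31. Members were 5% of all eligible tiles and 2703 of the 37338 eligible tiles in gene bodies. These genes were picked for having the most members, so their counts are a description. Their medians in Tet/Tet ESCs were between 5.09% and 9.39%, below the 14.5% of all members, and in Tet/Tet neurons they were between 14.3% and 18.3%.

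In Myo10 the densest member, chr15:25781001-25782000, overlaps 864 bases of coding sequence and has 69 CpGs per kb. Over its 18 listed sites the level was 0.694% in R1 and 0.808% in Tet/Tet among ESCs, and 96.9% and 22.8% ± 26.9 (SD over sites) among neurons. The other members of Myo10 were between 6.18% and 26.0% in Tet/Tet neurons. In Zmynd8 the member chr2:165807001-165808000, part of which is printed above, had 5.37% ± 2.81 in R1 and 2.38% ± 2.55 in Tet/Tet among ESCs, and 95.6% ± 1.67 and 16.5% ± 7.21 among neurons over 15 sites. Tet/Tet neurons were above Tet/Tet ESCs at all 15 sites of that member.

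The highest levels in Tet/Tet neurons were the 100% near Olfr731, 81.2% in Epha6, 80% in Nubpl, 70.0% in an intergenic tile nearest to Ythdf3, 65% in Adprh and 62.5% in A530053G22Rik, each with 5 to 8 listed sites. In that library 63 members were listed at 0%, and those with the most sites among them lay in Zcwpw1, Cfap43 and Dbx2, which had 42.3%, 23.1% and 46.9% in Tet/Tet ESCs. With sites in MspI fragments only, Cfap43 was at 50% in Tet/Tet ESCs, and by the median over sites A530053G22Rik was at 100% in Tet/Tet neurons. The tiles in Zcwpw1 and Dbx2 had no listed site in such fragments. The highest levels in Tet/Tet ESCs were 100% in tiles in Sh2d3c and Wbp11 and in tiles nearest to Gm20594, Kynu and Vstm2b, and 95.2% in a tile nearest to Zbtb33. These 6 tiles had 5 to 7 listed sites, were at or below 20% in R1 ESCs and were between 0% and 33.9% in Tet/Tet neurons. How many reads gave these values is not known.

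Tiles on either side of the limits were alike. The 492 members from 90% to under 91% in R1 neurons had medians of 13.6% in ESCs and 14.2% in neurons of the Tet/Tet line, and the 435 tiles from 89% to under 90% that met the other limit had 13.4% and 14.0%. The 409 members above 19% in R1 ESCs had 23.3% and 17.4%, and the 324 tiles above 20% and up to 21% had 22.6% and 18.2%. By chromosome, members were between 4.14% and 6.92% of eligible tiles on the autosomes analysed and X, and 1.39% on Y, where there were 4. The median in Tet/Tet neurons was 17.01% on X, against 15.8% over all members, and in Tet/Tet ESCs it was 18.8% against 14.5%.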

How the data were processed

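RRBS was measured in ESCs and neurons of the R1 and Tet/Tet lines, with 1 library per condition, grouped by the labels. According to the methods of the study and the processing notes of the submitters, the authors trimmed reads with Trim Galore 0.6.4, checked them with FastQC 0.11.8, aligned them to mm10 with Bismark 0.19.0 and called CpGs with MethylDackel 0.3.0. The deposited values give, for each CpG, methylation as a percent of reads, not normalized between libraries and without read totals, so precision per site is unknown and every site was weighted equally. Tiles, locations and sequence features were computed in Python 3.11.15 with numpy 2.4.6, pandas 2.3.3 and scipy 1.17.1 on the RefSeq GRCm38 (mm10) sequence and GENCODE M21 genes, and figures were drawn with matplotlib 3.10.9. Islands were stretches longer than 200 bases, with GC of 50% or more, whose observed CpG number was over 0.6 of the expected one. No test between conditions was made, since each had 1 library.

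The members and lists were chosen with earlier results of these data known. Named genes were the 12 protein-coding genes whose start member had the most listed sites, listed genes with a member at the start (at most 6 per list), the 5 genes with the most members, and genes at or nearest to the members with the 6 highest and 3 lowest Tet/Tet neuron levels and the 6 highest Tet/Tet ESC levels. The alternatives changed the site minimum, the limits, the tile start, the average, the sites and chromosomes used, and the definitions of promoter, island and difference. The tile and overlap functions were tested on simulated data. The count of members inside the neural factor genes is not reported here.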

Additional observations from a re-analysis of the deposited data

Results flagged for a closer look

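Over the members, the mean difference between Tet/Tet and R1 was 5.76 percentage points in ESCs and -77.4 points in neurons, so that its sign differed between the cell types. The mean difference between neurons and ESCs was 81.7 points in R1 and -1.37 points in Tet/Tet, so that its sign differed between the lines. R1 levels chose the members, which fixes the size of the R1 change, and with 1 library per condition neither contrast between differences was tested. The median difference between Tet/Tet neurons and Tet/Tet ESCs was 1.42 points, opposite in sign to the mean.

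The mitochondrial sites, which are outside the tiles, had a mean of 15.9% in R1 neurons, against 6.27% in Tet/Tet neurons, and of 3.19% and 7.37% in the ESCs of these lines. R1 neurons are the library whose high level defines the members, and whether the mitochondrial value bears on that level was not tested.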

How the results depend on the processing

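No paired analysis was possible because each condition had 1 library and no test was made. The number of members depended on the choices most: it was 8046 with a minimum of 3 sites, 1081 with 10, 125 with 20 (a minimum chosen after seeing the data), 1344 with R1 ESCs at most 10%, 12626 with limits of 30% and 80%, 7547 with medians over sites and 1678 with sites inside MspI fragments only. Values follow in the order Tet/Tet ESC median, Tet/Tet neuron median, share higher in Tet/Tet ESCs than R1 ESCs, share higher and share lower in Tet/Tet neurons than Tet/Tet ESCs, share on islands, share at starts, and CpGs per kb, where they left the 95% interval over regions of the value reported. A minimum of 3 sites gave 16.1%, 14.7%, 32.8%, 15.8%, 29.5%, 7.28%, 7.89% and 18. A minimum of 10 gave 12.8%, 17.4%, 14.1%, 24.8%, 12.2%, 24.5%, 12.9% and 29, and a minimum of 20 gave 10.99%, 20.2%, 4%, 44.8%, 4.8%, 58.4%, 14.4% and 43. MspI fragments only gave 12.7%, 16.7%, 11.4%, 22.8%, 10.4%, 22.1%, 11.025% and 26. With R1 ESCs at most 10%, the medians were 8.21% and 14.7%, the shares higher and lower in Tet/Tet neurons 30.3% and 13.5%, and the share at starts 10.4%. With limits of 30% and 80%, the medians were 20.3% and 15.4% and those shares 10.97% and 33.6%. Medians over sites gave 12.5%, 14.3% and 14.7% on islands. With a difference of 25 points the 3 shares were 8.20%, 1.60% and 7.18%. Stricter islands were overlapped by 2.47% of members, 2.44% lay by at least 500 bases in islands, 15.7% were within 2 kb of a start and 3.47% within 1 kb of a protein-coding start. Which of Tet/Tet neurons and Tet/Tet ESCs was higher more often turned with the site minimum, the R1 ESC limit and the sites used, and the cause was not tested. Tiles starting 500 bases later and autosomes only left every one of these values inside its interval. Of 316 recomputed values of named regions, 4 moved by more than 1 SD over sites, and 36 had no site in MspI fragments. Unknown depth per site and 1 library per condition limit all values.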
